A study of Arabidopsis thaliana with 6 samples.

Results

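Heat shock factors and molecular chaperones were followed through 9 Arabidopsis thaliana genes, chosen by locus out of the 26984 genes in the deposited tables. They are the transcription factors HSFA1A (AT4G17750) and HSFA2 (AT2G26150), the cytosolic chaperones HSP70 (AT3G12580), HSC70-1 (AT5G02500), HSP90.1 (AT5G52640) and HSP90.2 (AT5G56030), the disaggregase HSP101 (AT1G74310), the chloroplast small heat shock protein HSP21 (AT4G27670) and the co-chaperone ROF1 (AT3G25230). The RefSeq annotation calls HSFA1A HSF1 and HSP90.2 HSP81-2. RNA-seq libraries came from whole 7-day-old seedlings grown in short days and collected at zeitgeber time 20 h. The hy5 group held 3 libraries (numbered 4, 5 and 6) of seedlings with the hy5-215 allele of HY5, whose product is a basic leucine zipper transcription factor of light-regulated development. It was compared with 3 libraries (numbered 1, 2 and 3) of the wild-type accession Col_0. The mutant was represented by 1 line, and the labels name no heat treatment in either genotype, so the levels are those of seedlings not described as stressed.

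Heat shock factors bind DNA as trimers at heat shock elements, which are arrays of GAA units facing in alternate directions. In unstressed cells HSP70 and HSP90 bind class A1 factors and keep them inactive, and unfolded proteins draw these chaperones away when the temperature rises. The freed factors switch on HSFA2, the stress-inducible HSP70 and HSP90 genes, HSP101 and the small heat shock proteins. Arabidopsis keeps constitutive copies (HSC70-1, HSP90.2) beside the inducible ones (HSP70, HSP90.1), which allows the basal pool and the inducible pool to be read apart.

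Expression is given as FPKM, a fragment count divided by the length of the gene and by the size of the library, so levels can be set side by side between genes. Summed FPKM per library lay between 528554 and 556418, and 16859 to 17123 genes reached 1 FPKM. Absolute depth is unknown. Libraries of the same genotype correlated at 0.983 to 0.994 (Pearson, across 17205 genes on the log2 scale, where genes do not count as replicates), and libraries of different genotypes at 0.957 to 0.972. Wild type 3 stood apart from the other wild-type libraries on the second principal component, at -24.7, while wild type 2 lay at 16.7. It held the lowest of the wild-type values in 51.2% of all genes tested, and in 5 of the 7 members tested. Results are therefore also given without it where that changed them. HY5 itself was at 2.65 ± 0.66 FPKM in hy5 and 13.4 ± 0.45 FPKM in wild type (SD, n = 3 each), so the labels of all 6 libraries matched its level.

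Markers of organs and stages were read beside the members, because the seedlings were sampled whole. Shoot markers (4 genes) summed to 28505 to 32242 FPKM in hy5 and 27833 to 32717 FPKM in wild type, mostly from RBCS1A and CAB1. Of the 4 tested, 1 rose, against 11.7% higher among all genes tested. That gene, LHB1B1 (AT2G34430), a light-harvesting gene with close copies that make its level uncertain, was at 1415 ± 144.2 FPKM in hy5 and 704.3 ± 77.9 FPKM in wild type (log2 difference 1.01, limma adjusted p = 2.10e-05). RBCS1A was lower in hy5 without passing (log2 difference -0.26), and CAB1 and LHCA1 were higher without passing (0.20 and 0.25). The 5 root markers summed to 1965 to 2089.9 FPKM in hy5 and 1430.1 to 1642 FPKM in wild type. These sums came mostly from PYK10. Of the 4 tested, 2 rose (PYK10 and SHR, against 11.7% higher among all genes tested). SCR and EXPA7 were lower in hy5 without passing (log2 differences -0.15 and -0.37), and the median over the 4 was 0.07. PLT1, below the filter, was at 0.50 ± 0.25 FPKM in hy5 and 0.21 ± 0.075 FPKM in wild type. With no filter the median over the 5 was 0.29. Seed and embryo markers (6 genes) summed to 11.5, 2.44 and 2.94 FPKM in hy5 libraries 4, 5 and 6, against 30.1, 153.5 and 65.7 FPKM in wild-type libraries 1, 2 and 3. Of the 5 tested, 3 fell, against 11.1% lower among all genes tested. All 5 reached 1 FPKM in every wild-type library and none did in every hy5 library. None would therefore have been tested on its hy5 libraries alone. SESA1, a seed storage albumin gene, was listed at 0 in hy5 6 and EM1 at 0 in hy5 5. In bulk samples, fewer cells of a type and less RNA per cell cannot be told apart. The part that these shifts in markers had in the results on heat genes was not tested.

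The 9 loci lie on all chromosomes of the TAIR10.1 assembly, and all are nuclear. HSFA1A is on chromosome 4 at 9869818 to 9871646, minus strand, and HSFA2 is on chromosome 2 at 11135624 to 11137792, plus strand. HSP70 (chromosome 3, 3991117 to 3993886) and HSC70-1 (chromosome 5, 553745 to 556623) are on the minus strand, each with 2 merged exons. HSP90.1 (chromosome 5, 21352557 to 21355147, 4 merged exons) and HSP90.2 (chromosome 5, 22686473 to 22689671, 3 merged exons) are on the plus strand of the same chromosome. HSP101 is at 27936508 to 27940369 on the minus strand of chromosome 1, and HSP21 is at 13818825 to 13819971 on the minus strand of chromosome 4. ROF1, with 13 merged exons, is at 9188096 to 9191630 on the plus strand of chromosome 3.

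The 250 bases before the annotated start were searched for heat shock elements and for the G-box CACGTG, a core that HY5 binds. A heat shock element of 3 units was taken as GAA and TTC in turn (GAA, TTC, GAA or TTC, GAA, TTC) with any 2 bases between units, and a shorter one as 2 such units, on both strands. A 3-unit element contains 2-unit ones, so the counts overlap. The 3-unit element was present in 1 of the 9 promoters (HSFA2) and in 0.393% of the 26983 promoters of the annotated genes. The 2-unit element was present in 2 of 9 (HSFA2 and HSP21) and in 16.1% of all, and the G-box in 2 of 9 (HSFA2 and HSC70-1) and in 6.47% of all. The promoters of 4 members are shown, read from the RefSeq TAIR10.1 genome 5′ to 3′ on the gene's own strand, with the motifs in capitals. HSFA2 (chr2:11135374-11135623, plus strand) is the only member with the 3-unit element, GAAGTTTCTGGAA, whose first base is 88 bases before the start. It also holds a G-box at 56 and a separate 2-unit element at 33 bases before the start. HSC70-1 (chr5:556624-556873, minus strand) carries a G-box at 70, and HSP21 (chr4:13819972-13820221, minus strand) carries GAAACTTC at 100 bases before the start. HSP70 (chr3:3993887-3994136, minus strand) is shown as the member with the largest difference between genotypes, and none of the searched letters occurs in its window.
HSFA2: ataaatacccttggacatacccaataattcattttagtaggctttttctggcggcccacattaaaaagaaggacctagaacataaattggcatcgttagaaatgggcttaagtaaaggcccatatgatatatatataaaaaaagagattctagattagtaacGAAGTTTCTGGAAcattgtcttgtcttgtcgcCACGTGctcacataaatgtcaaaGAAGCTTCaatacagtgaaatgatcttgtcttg
HSP21: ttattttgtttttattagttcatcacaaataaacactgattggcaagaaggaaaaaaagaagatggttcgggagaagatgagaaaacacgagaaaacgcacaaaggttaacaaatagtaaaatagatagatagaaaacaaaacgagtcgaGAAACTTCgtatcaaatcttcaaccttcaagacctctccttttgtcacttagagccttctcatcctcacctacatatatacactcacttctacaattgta
HSC70-1: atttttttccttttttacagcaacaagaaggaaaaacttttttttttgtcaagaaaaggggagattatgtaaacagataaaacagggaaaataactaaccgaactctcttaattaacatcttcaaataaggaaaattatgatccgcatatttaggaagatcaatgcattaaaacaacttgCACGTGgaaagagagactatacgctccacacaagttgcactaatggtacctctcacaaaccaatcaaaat
HSP70: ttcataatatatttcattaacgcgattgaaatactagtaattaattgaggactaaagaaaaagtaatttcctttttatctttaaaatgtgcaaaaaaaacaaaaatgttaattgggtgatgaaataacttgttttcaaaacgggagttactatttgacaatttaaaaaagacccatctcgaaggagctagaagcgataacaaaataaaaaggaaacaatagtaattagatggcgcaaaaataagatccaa
The RefSeq model of HSP90.1 has no UTR (its merged exons and its coding sequence are both 2103 nt), so the bases before its annotated start precede the start codon and are not shown. The HSP90.1 window is still counted among the 9, though without a UTR it cannot be placed before a transcription start. Only exact matches within 250 bases were counted, so a member without a match may hold an imperfect or more distant element. A match is a description of letters and not evidence of binding.

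Of the 9 genes, 7 reached 1 FPKM in at least 3 libraries and were tested, with limma on log2(FPKM + 1) across 17205 genes. HSP70 and HSP90.1, which encode stress-inducible cytosolic chaperones, rose in hy5. Neither constitutive counterpart passed the test, nor did HSFA1A, HSP101 or ROF1, and HSFA2 and HSP21 were too low to test. The count was 2 higher and 0 lower of 7, set against 11.7% higher and 11.1% lower among all genes tested, or 22.8% called in all. With so few members, 2 of 7 is a description and says little against that background. At an unadjusted limma p under 0.05 the count was the same, 2 higher and 0 lower. Among all 17205 genes tested, 3134 were higher and 3051 lower on that basis. The median log2 difference over the 7 was 0.19, against -0.00094 over all genes tested, and it covers only members that passed the filter. Without wild type 3 the median over the 7 was 0.07. The ranges of the genotypes did not overlap for 3 of the 7 (HSP70, HSP90.1 and HSP101), and for 40.2% of all genes tested.

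**Figure D1:**
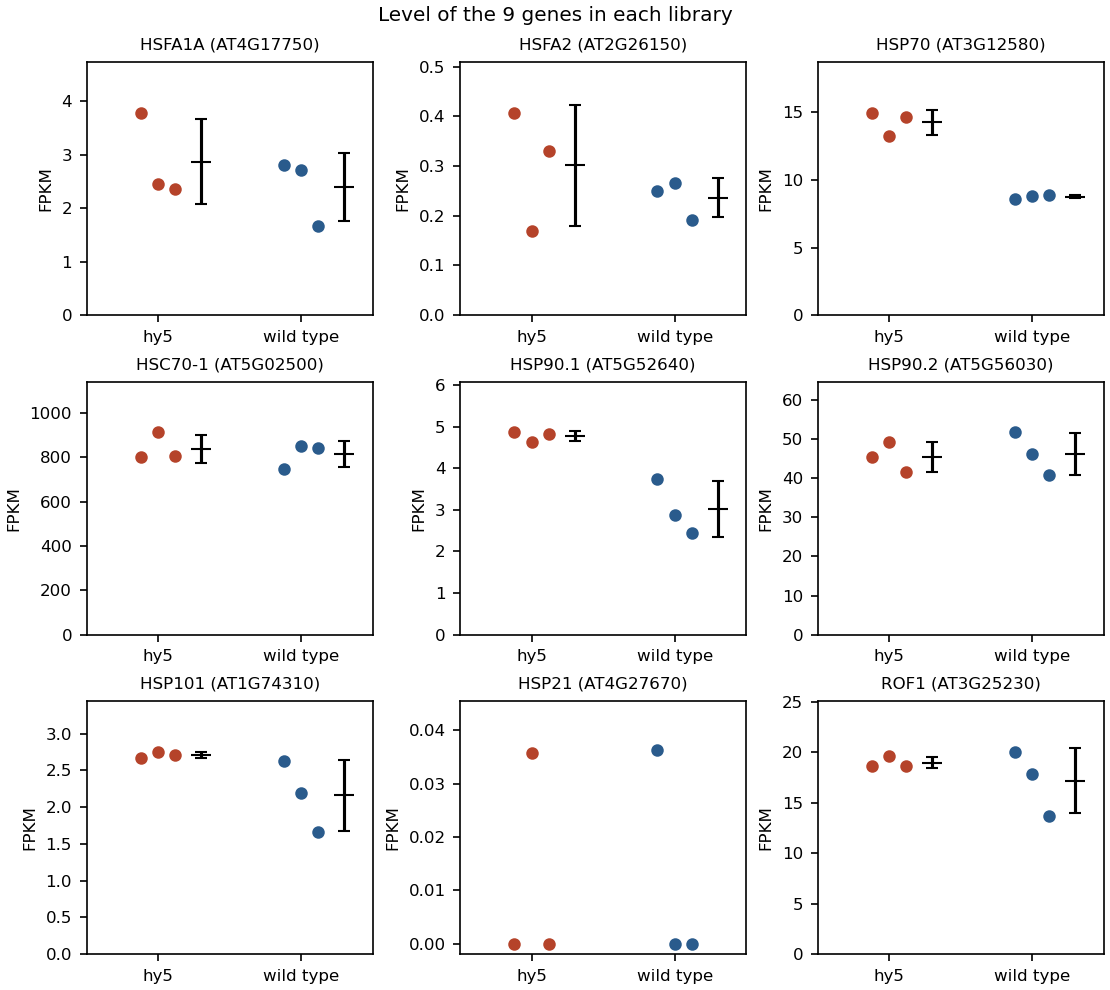
FPKM of each of the 9 genes in the 3 hy5 libraries (left in each panel) and the 3 wild-type libraries (right), with mean and SD bars except for HSP21; each panel has its own vertical axis. HSP70 and HSP90.1 sit apart between the genotypes, HSC70-1 and HSP90.2 overlap, and HSP21 is listed at 0 in 4 of the 6 libraries.

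The levels spanned a wide range and had the same broad order in both genotypes. HSC70-1 was the most abundant at 839.3 ± 64.1 FPKM in hy5 and 815.0 ± 57.8 FPKM in wild type (SD, n = 3 each). HSP90.2 followed, then ROF1, HSP70 and HSP90.1, and after them HSFA1A and HSP101, whose ranges overlapped in both genotypes and whose order is not resolved. HSP90.1 lay above HSFA1A and HSP101 without overlap in hy5, and overlapped both in wild type. HSFA2 and HSP21 came last.

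HSFA1A encodes a class A1 factor, one of the constitutively expressed regulators that start the heat response. Its level was 3.78, 2.45 and 2.36 FPKM in hy5, against 2.81, 2.71 and 1.67 FPKM in wild type. The ranges overlapped, hy5 4 was highest and wild type 3 lowest. The log2 difference was 0.19 (SE 0.18, 95% interval -0.20 to 0.57, limma adjusted p = 0.493), and it was 0.02 without hy5 4 and 0.02 without wild type 3. The other class A1 genes did not pass the test either. HSFA1B (AT5G16820, HSF3 in RefSeq) was at 4.97 ± 0.69 FPKM in hy5 and 3.76 ± 0.40 FPKM in wild type, and HSFA1D (AT1G32330) had a log2 difference of 0.0069, whose sign changed under upper-quartile rescaling.

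HSFA2 encodes the heat-inducible factor that prolongs the response. It was at 0.407, 0.169 and 0.330 FPKM in hy5, against 0.250, 0.266 and 0.191 FPKM in wild type, below the 1 FPKM needed for testing. The hy5 values lay on both sides of the wild-type ones. No genotype difference was detectable at these levels.

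The wider family list held 21 heat shock factor genes, of which 20 were in the tables (AT4G18880 was not analysed here) and 15 were tested. HSFA5 and HSFA8 rose (2 of 15, against 11.7% higher among all genes tested) and 0 fell, the median log2 difference was 0.17, and wild type 3 was the lowest wild type in 12 of the 15. HSFA8 (AT1G67970) was at 1.42, 1.92 and 1.75 FPKM in hy5, against 0.665, 0.782 and 0.758 FPKM in wild type. All hy5 values exceeded all wild-type ones, with a log2 difference of 0.63 (SE 0.14, limma adjusted p = 0.00626). HSFA8 passed the 1 FPKM filter only through its hy5 libraries and leaves the test when any of them is left out. HSFA5 (AT4G13980), known as a partner that inhibits HSFA4 factors, was at 12.3, 11.1 and 11.1 FPKM in hy5, against 10.1, 7.22 and 6.46 FPKM in wild type. The difference of 0.51 (SE 0.14, limma adjusted p = 0.0189) lost its call without hy5 4 (adjusted p = 0.0786), hy5 6 (0.0519), wild type 2 (0.0561) or wild type 3 (0.0526). HSFA7A (AT3G51910) had 18.5, 11.4 and 20.3 FPKM in hy5, against 12.6, 10.1 and 9.98 FPKM in wild type, with overlap at hy5 5. It missed the threshold (log2 difference 0.54, limma adjusted p = 0.058) and reached it without hy5 5 (adjusted p = 0.00216). Without hy5 4 or hy5 6 the count of factors higher in hy5 was 0, and without wild type 2 it was 1. Without wild type 3, 1 factor rose (HSFA8) and HSFC1 (AT3G24520) was lower (-0.38, adjusted p = 0.0302). HSFA7A was singled out after its values were seen. HSFA9 (AT5G54070), the factor of seed maturation, was listed at 0 in all 3 hy5 libraries and at 0, 0.0276 and 0.0259 FPKM in wild type. These values are too low to show a difference between genotypes.

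HSP70 (AT3G12580) encodes a cytosolic Hsp70 that is strongly induced by heat. It was at 15.0, 13.2 and 14.7 FPKM in hy5, against 8.63, 8.78 and 8.88 FPKM in wild type. Every hy5 library lay well above every wild-type library, and the wild-type values were close together. The mean was 14.3 ± 0.92 FPKM in hy5 and 8.76 ± 0.12 FPKM in wild type (SD, n = 3 each), which is 1.63-fold higher in hy5. The log2 difference was 0.65 (SE 0.10, 95% interval 0.42 to 0.87, limma adjusted p = 6.91e-04), and it kept its call under all 13 alternatives run, including each library left out (0.61 to 0.70). Its coding sequence shares no stretch of 50 nt exactly with another gene, and its closest relative, Hsp70-2 (AT5G02490), is 79.2% identical.

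HSC70-1 encodes the main constitutive cytosolic Hsp70. It was at 800.3, 913.2 and 804.2 FPKM in hy5, against 748.4, 852.2 and 844.5 FPKM in wild type. The genotypes overlapped, and the log2 difference of 0.04 had a 95% interval of -0.16 to 0.24 (limma adjusted p = 0.782), with a sign that changed when a library was left out. Set against HSC70-1 within each library, HSP70 had a log2 ratio of -5.65, -6.00 and -5.69 in hy5, against -6.28, -6.45 and -6.42 in wild type. All 3 hy5 ratios were above all wild-type ratios, with a mean of -5.78 ± 0.20 in hy5 and -6.38 ± 0.088 in wild type. The difference was 0.60, and the exact two-sided permutation p was 0.1, the smallest that 3 against 3 allows. Within the summed FPKM of 5 cytosolic Hsp70 genes, HSP70 took 1.60% ± 0.21 in hy5 and 1.02% ± 0.056 in wild type, while HSC70-1 took 93.4% ± 0.56 in hy5 and 94.4% ± 0.52 in wild type. The pool as a whole was 898.0 ± 63.2 FPKM in hy5 and 863.2 ± 56.7 FPKM in wild type.

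Across the HSP70 family, 15 of 16 genes were tested, and HSP70 was the 1 gene that passed, against 22.8% called among all genes tested. The median log2 difference was 0.04, and wild type 3 was the lowest wild type in 11 of the 15. Hsp70b (AT1G16030), a further heat-inducible cytosolic Hsp70, was at 2.27, 2.29 and 2.76 FPKM in hy5, against 2.52, 2.46 and 1.79 FPKM in wild type. The ranges overlapped and the log2 difference was 0.08 (95% interval -0.23 to 0.39, limma adjusted p = 0.73), so the inducible cytosolic Hsp70 genes did not all pass the test. Hsp70-2 was at 8.15 ± 0.13 FPKM in hy5 and 6.61 ± 0.44 FPKM in wild type, without overlap but short of the threshold (limma adjusted p = 0.102). Without wild type 3, 2 family members were lower in hy5, cpHsc70-2 (AT5G49910), a chloroplast Hsp70 (log2 difference -0.37, adjusted p = 0.0197), and HSP91 (AT1G79930), of the Hsp110 class (-0.27, adjusted p = 0.032).

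HSP90.1 encodes the heat-inducible cytosolic Hsp90. It was at 4.86, 4.63 and 4.83 FPKM in hy5, against 3.75, 2.87 and 2.45 FPKM in wild type. The hy5 libraries were close together and above all wild types, which were spread with wild type 1 highest. On average it was at 4.78 ± 0.12 FPKM in hy5 and 3.02 ± 0.66 FPKM in wild type (SD, n = 3 each), 1.58-fold higher in hy5. Its log2 difference was 0.53 (SE 0.14, 95% interval 0.23 to 0.84, limma adjusted p = 0.0161). That call was lost without hy5 4 (adjusted p = 0.062) or hy5 6 (adjusted p = 0.0638), and it held without wild type 3 (0.43, adjusted p = 0.0356).

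HSP90.2 encodes a constitutive cytosolic Hsp90. It was at 45.5, 49.3 and 41.6 FPKM in hy5, against 51.7, 46.2 and 40.8 FPKM in wild type. The genotypes overlapped fully, and the log2 difference was -0.02 (95% interval -0.24 to 0.20, limma adjusted p = 0.911). Its coding sequence is 95.5% identical to that of HSP81-3 (AT5G56010) over 1977 nt, and 24.1% of its windows of 50 nt occur exactly in another gene. Levels of these neighbours are therefore uncertain, because the handling of shared reads is not given in the sources used here. The log2 ratio of HSP90.1 to HSP90.2 was -2.99, -3.16 and -2.87 in hy5, against -3.47, -3.61 and -3.60 in wild type. All hy5 ratios lay above all wild-type ratios, with a difference of 0.56 and an exact two-sided permutation p of 0.1, again the smallest possible. HSP90.1 took 4.46% ± 0.35 of the summed FPKM of 4 cytosolic Hsp90 genes in hy5 and 3.04% ± 0.29 in wild type, and the sum was 107.4 ± 6.08 FPKM in hy5 and 98.8 ± 12.6 FPKM in wild type. The ratios did not overlap although the totals did. HSP81-3 was at 48.8 ± 1.91 FPKM in hy5 and 41.85 ± 5.23 FPKM in wild type (log2 difference 0.22, limma adjusted p = 0.12). Its share of the sum was 45.5% in hy5 and 42.35% in wild type, while that of HSP90.2 was 42.3% in hy5 and 46.8% in wild type. The ratio of HSP90.1 to HSP81-3 was not tested, so the ratio result holds for HSP90.2 alone.

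**Figure D2:**
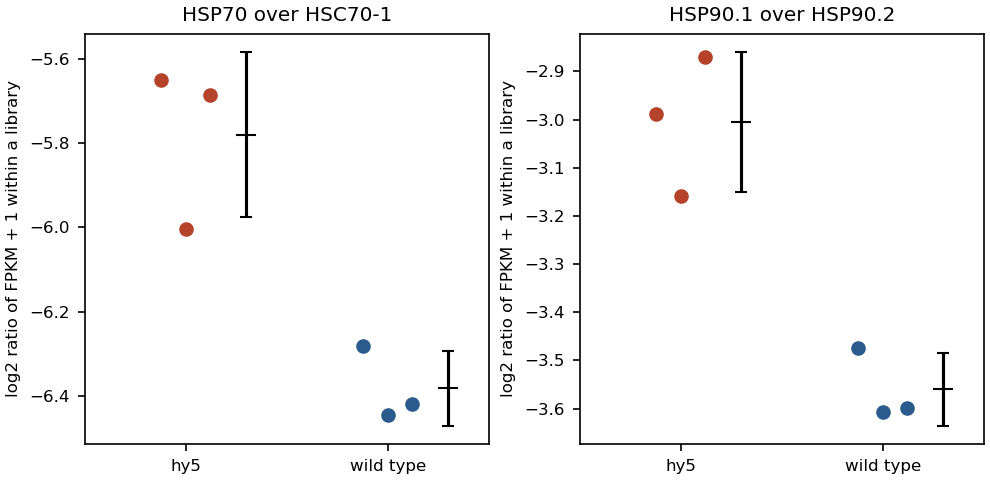
Within-library log2 ratios of the stress-inducible over the constitutive cytosolic gene for HSP70 and for HSP90, on the log2(FPKM + 1) scale, with hy5 to the left of wild type and bars for mean and SD. In both pairs all 3 hy5 ratios lie above all 3 wild-type ratios, by 0.60 for HSP70 and 0.56 for HSP90.

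All 7 genes of the HSP90 family were tested, HSP90.1 rose and 0 fell, with a median log2 difference of 0.11. Among all genes tested, 11.7% were called higher and 11.1% lower. Wild type 3 was the lowest wild type in all 7. Among the organelle members, CR88 and Hsp89.1 passed only without that library. CR88 (AT2G04030), the chloroplast Hsp90, was at 35.6, 39.2 and 32.2 FPKM in hy5, against 54.4, 49.9 and 31.7 FPKM in wild type, so wild type 3 fell below every hy5 value while the other wild types exceeded all of them. With all libraries its log2 difference was -0.31 (limma adjusted p = 0.249), and without wild type 3 it was -0.54 (adjusted p = 0.00447). Hsp89.1 (AT3G07770), the mitochondrial Hsp90, had a log2 difference of -0.21 with all libraries and -0.34 (adjusted p = 0.021) without wild type 3. SHD (AT4G24190), the endoplasmic reticulum Hsp90, had a log2 difference of 0.41 that passed only without wild type 1 (0.59, adjusted p = 0.00638).

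HSP101 encodes the cytosolic disaggregase needed for acquired thermotolerance, and is also known to accumulate in maturing seeds. It was at 2.67, 2.75 and 2.71 FPKM in hy5, against 2.63, 2.20 and 1.66 FPKM in wild type. The hy5 values were nearly equal and the lowest of them was just above wild type 1. The log2 difference was 0.24 (SE 0.15, 95% interval -0.07 to 0.56), which did not pass (limma adjusted p = 0.254) and was 0.12 without wild type 3. The summed seed markers were lower in hy5 and highest in wild type 2, which was intermediate among the wild types in HSP101. Any relation of HSP101 to these markers was not tested. The 3 disaggregase genes listed were tested and none passed (median 0.23, wild type 3 the lowest wild type in all 3), against 22.8% called among all genes tested. At an unadjusted limma p under 0.05 the count was also 0 of 3, against 3134 higher and 3051 lower among all 17205 genes tested.

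HSP21 encodes a small heat shock protein of the chloroplast that is barely present without heat. It was listed at 0, 0.0359 and 0 FPKM in hy5, against 0.0364, 0 and 0 FPKM in wild type. A value above 0 occurred in 1 library of each genotype, so no difference was detectable. In the wider list of small heat shock proteins, 11 of 16 genes were below the filter. Of the 5 tested, 0 rose and 0 fell, against 22.8% called among all genes tested, and the median log2 difference was -0.23. With no filter the median over all 16 was 0.03. When 1 library was left out, the count of lower genes was 0 to 1. Most of the summed level came from AT4G21870, listed as a gene of the 15.4 kDa class, at 19.1, 15.4 and 22.4 FPKM in hy5, against 23.5, 22.0 and 30.4 FPKM in wild type. The ranges overlapped at hy5 6 (log2 difference -0.40, limma adjusted p = 0.0666), and the other 15 genes never exceeded 3.15 FPKM in any library.

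ROF1 encodes an FK506-binding peptidyl-prolyl isomerase that binds HSP90.1 and, under heat, takes part in prolonging HSFA2 activity. It was at 18.6, 19.6 and 18.7 FPKM in hy5, against 20.1, 17.9 and 13.7 FPKM in wild type. Wild type 1 was above and wild type 3 well below the hy5 values. The log2 difference of 0.15 (95% interval -0.12 to 0.41, limma adjusted p = 0.418) was 0.0018 without wild type 3. Its closest relative in sequence was ROF2 (AT5G48570), 76.2% identical.

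Among co-chaperones of Hsp70 and Hsp90, 3 of 17 tested genes were higher (11.7% among all genes tested) and 0 lower, with a median of 0.24. With so few genes, 3 of 17 says little against that background. The count was 6 without wild type 1 and under median-ratio rescaling, and 5 with a pseudocount of 5. SQN (AT2G15790), the cyclophilin 40 that acts with Hsp90 and is needed for miRNA function, was at 124.9, 78.1 and 106.8 FPKM in hy5, against 5.67, 4.74 and 5.21 FPKM in wild type. Every hy5 library was far above every wild-type library, 19.8-fold in the means (log2 difference 4.05, SE 0.15, limma adjusted p = 3.37e-09). Hop2 (AT1G62740), a Hop protein that links Hsp70 with Hsp90, was at 15.3, 14.5 and 14.5 FPKM in hy5, against 11.3, 9.53 and 7.68 FPKM in wild type. BAG6 (AT2G46240), a calmodulin-binding BAG protein, was at 2.01, 1.98 and 1.98 FPKM in hy5, against 1.02, 0.941 and 0.699 FPKM in wild type. The ranges did not overlap for either gene, and the log2 differences were 0.60 (SE 0.13, limma adjusted p = 0.00425) for Hop2 and 0.67 (SE 0.14, limma adjusted p = 0.00408) for BAG6. Wild type 3 was the lowest wild type in 16 of the 17 genes.

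Of the 8 chaperonin genes, 2 were lower in hy5 (11.1% among all genes tested) and 0 higher, with a median log2 difference of -0.23. Cpn60beta2 (AT3G13470), a subunit of the chloroplast chaperonin, was at 23.0, 26.6 and 21.3 FPKM in hy5, against 36.4, 42.5 and 33.6 FPKM in wild type. The ranges were separate, with a log2 difference of -0.64 (SE 0.11, limma adjusted p = 0.00115). CPN10 (AT1G14980), the mitochondrial co-chaperonin, was at 16.3 ± 0.69 FPKM in hy5 and 21.1 ± 0.77 FPKM in wild type (log2 difference -0.36, limma adjusted p = 0.0144), a call lost without hy5 4 (adjusted p = 0.071) or hy5 6 (adjusted p = 0.0776). The count of chaperonin genes called lower was 4 without wild type 3 or without hy5 5, and 1 without hy5 4 or without hy5 6. Among 7 further heat-response genes, 5 were tested, 0 rose and HSBP (AT4G15802), which binds heat shock factors and dampens them, fell. The share called among all genes tested was 22.8%. HSBP was at 34.3 ± 1.41 FPKM in hy5 and 43.2 ± 1.97 FPKM in wild type (log2 difference -0.32, SE 0.085, limma adjusted p = 0.0153), and its call was lost without hy5 4 (adjusted p = 0.0804), hy5 6 (0.08) or wild type 2 (0.0535).

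**Figure D3:**
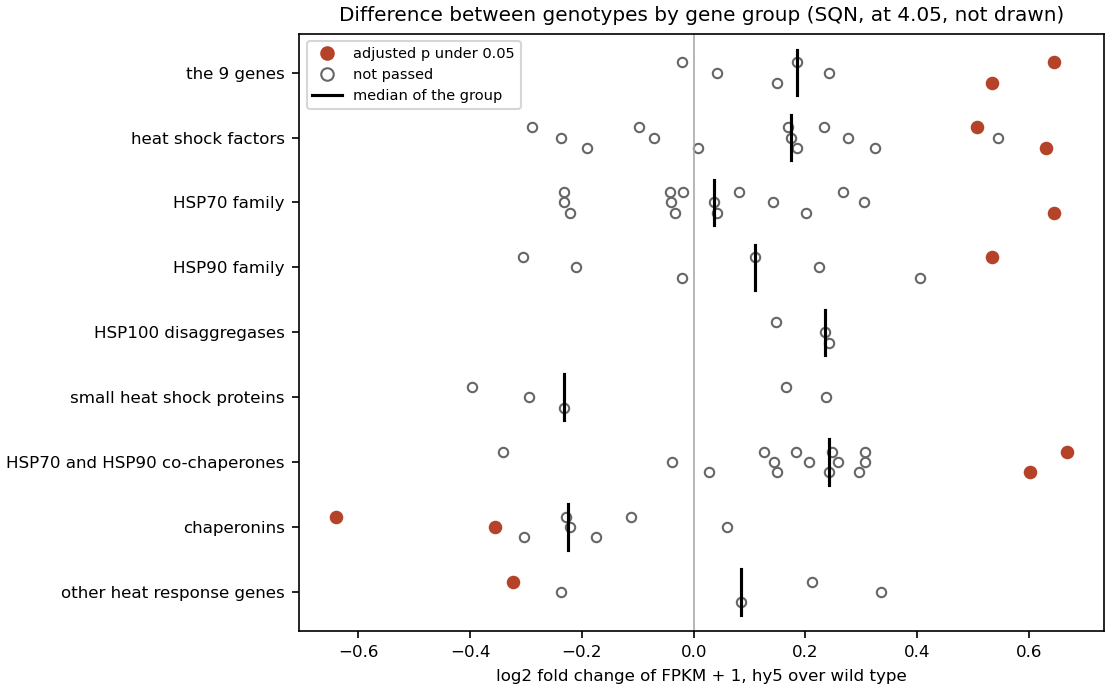
Log2 differences between hy5 and wild type, on the log2(FPKM + 1) scale, of the tested genes in each heat-related list, 1 point a gene, with called genes filled and the list median as a line. The co-chaperone median lies above 0 (0.24) and the chaperonin median below it (-0.23); SQN, at 4.05, is off the scale and not drawn.

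Over all lists together, 96 distinct genes were named, 95 were in the tables and 75 were tested. Of these, 7 rose and 3 fell, which is 13.3% called, below the 22.8% of all genes tested. The median log2 difference was 0.13. Several lists had 0 calls in a direction. At an unadjusted limma p under 0.05, the lower genes numbered 1 heat shock factor, 2 of the HSP70 family, 0 of the HSP90 family, 1 small heat shock protein and 1 co-chaperone. The higher genes on that basis numbered 0 small heat shock proteins, 0 chaperonins and 1 of the further heat-response genes. Among all 17205 genes tested, 3134 were higher and 3051 lower at that level. Wild type 3 held the lowest wild-type value in 59 of the 75 (78.7%), against 51.2% of all genes tested. Around their genotype means, the median deviation of the 75 genes was 0.10, 0.05 and -0.13 in wild type 1, 2 and 3, and it lay between -0.02 and 0.01 in the hy5 libraries. Without wild type 3 the count was 6 higher and 10 lower, and the list medians were -0.06 for the HSP70 family, -0.0097 for the HSP90 family, 0.04 for the disaggregases and -0.35 for the chaperonins. Without wild type 1 it was 11 higher, as it was under median-ratio rescaling, while without hy5 4 it was 4 higher and 1 lower, without hy5 6 it was 4 higher, and without hy5 5 it was 5 lower.

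**Figure D4:**
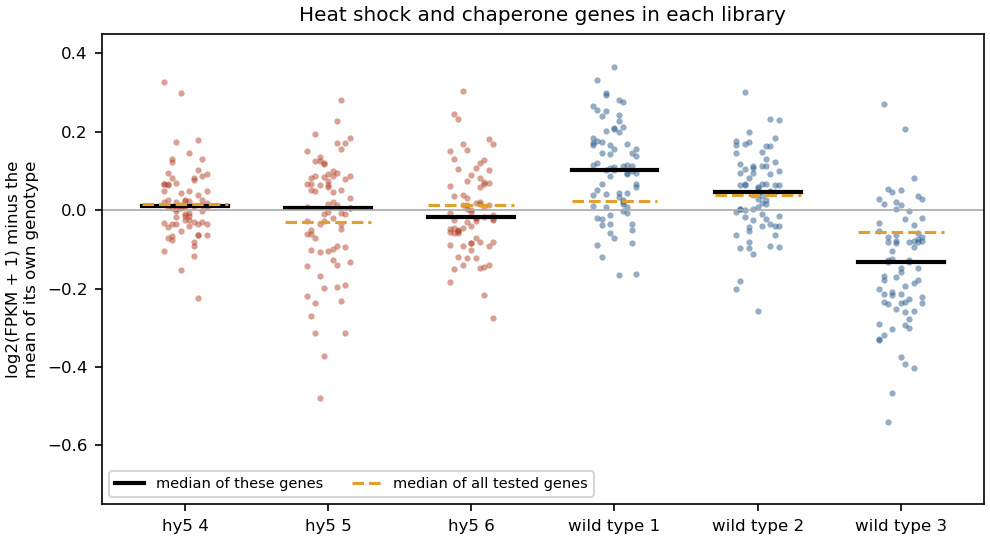
Each point is 1 of the 75 tested heat genes, as its log2(FPKM + 1) in a library minus the mean of that genotype, with hy5 libraries to the left of the wild-type ones; black lines are medians of these genes and dashed lines medians of all tested genes. The heat genes in wild type 3 centre at -0.13, against -0.05 for all genes in the same library, and the hy5 libraries centre near 0.

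For each tested member, the gene with the most similar course over the 6 libraries was found as the smallest root mean square difference of mean-centred log2(FPKM + 1). HSP70 was closest to PATL2 (AT1G22530), at a distance of 0.0288, against a median of 0.36 over all tested genes. PATL2 was at 72.0, 63.5 and 72.4 FPKM in hy5, against 43.5, 42.0 and 44.1 FPKM in wild type. Both genes had higher hy5 values with a dip in hy5 5, which follows from choosing PATL2 by its likeness over these same values. The smallest distance among all tested genes is a description and no evidence of shared regulation. HSP90.1 was closest to AT5G45510 (0.0339), HSFA1A to AT5G63280 (0.0739) and HSP101 to AT4G17100 (0.0253). HSC70-1 was closest to emb1187 (0.0267), HSP90.2 to AT3G54750 (0.0217) and ROF1 to LTA3 (0.0239).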

How the data were processed

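RNA-seq was measured in 3 libraries of hy5-215 and 3 of wild-type seedlings. The authors deposited 1 table per library with FPKM per locus, per the file headers. Named without roles in the submitters' processing notes are the build TAIR10, DESeq 1.18.0, Cufflinks, Bowtie2, TopHat, HISAT2 2.2.1.0 and Trimmomatic 0.36. Nothing on annotation, strand use or shared reads was given in the sources used. FPKM holds no read counts, so counting error of low genes is unknown, and a shift in abundant genes moves all others. Depth relative to wild type 1, from the spacing of the lowest values and searched only near equal depth, was 0.936 to 1.03.

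All 26984 loci matched RefSeq TAIR10.1, which gave symbols, coordinates and sequence; 4568 were at 0 in all libraries. The fit used limma 3.58.1 in R 4.3.3 (genotype only, trended and robust empirical Bayes) on log2(FPKM + 1), for genes that reached 1 FPKM in 3 or more libraries, with Benjamini-Hochberg adjustment over 17205 genes and a threshold of 0.05. This scale understates changes of low genes. Ratios were tested with exact permutation tests. The script was tested on simulated data. Similar coding sequences were found with blastn 2.17.0. Python 3.11.15, pandas 2.3.3, NumPy 2.4.6, SciPy 1.17.1 and matplotlib 3.10.9 were used. Separate plantings are not stated in the labels. The p-values therefore measure the spread among these libraries alone, and that spread may be technical.

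The members and lists were chosen with earlier results of these data known. Genes named are all members, up to 3 called genes of each list with the smallest p, those completing counts of 5 or fewer, HY5, and the gene most alike each tested member. Other list genes were named after their values were seen. Alternatives were pseudocounts of 0.1 and 5, no filter, a filter of 5 FPKM, median-ratio, upper-quartile and quantile rescaling, and leaving out each library.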

Additional observations from a re-analysis of the deposited data

How the results depend on the processing

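No paired analysis was possible because the libraries are numbered 4 to 6 in hy5 and 1 to 3 in wild type, so the genotypes share no number. Leaving out 1 library at a time gave 2028 to 4309 genes called in all (952 to 2059 higher, 1076 to 2250 lower), lowest without hy5 6 (2028) and hy5 4 (2201). The members higher in hy5 numbered 1 to 2 and those lower 0 to 0 in these runs, and 1 was higher with a filter of 5 FPKM, which removes HSP90.1. The HSP70 to HSC70-1 ratio difference stayed between 0.54 and 0.72 and that of HSP90.1 to HSP90.2 between 0.49 and 0.63. Of the 75 heat genes tested, 14 turned sign under at least 1 of 13 alternatives, and none of these had been called. Those named here are HSC70-1 (-0.020 to 0.075), HSP81-2 (-0.11 to 0.062), HSFA1D (-0.085 to 0.079), Hsp70b (-0.027 to 0.14) and Hsp81.4 (-0.0097 to 0.20) when a library was left out, and HSFA1D under upper-quartile rescaling (-0.0097). The cause was not tested. Of these 75 genes, 10 were called, 4 of the 10 lost the call and 3 left the filter under at least 1 alternative, and 18 others gained one. The median log2 difference over all genes was -0.00061 under median-ratio, -0.018 under upper-quartile and -0.0060 under quantile rescaling. It was -0.00094 in the main fit and -0.028 without wild type 3. HSFA2 and HSP21 were below the 1 FPKM filter and were not tested in the main fit. With no filter, 2 members were again called higher and 0 lower. Depth is unknown, so the counting error at such low levels is unknown too.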
